A study of Mus musculus with 15 samples.

Results

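Oxidative phosphorylation genes encode the respiratory chain and the ATP synthase of mitochondria. They were taken here by symbol, as every line of the deposited table whose symbol starts with mt-Nd, mt-Co, mt-Cytb, mt-Atp, Nduf, Sdha to Sdhd, Uqcr, Uqcc, Cox4 to Cox8 or Atp5. The rule found 103 of the 13834 genes listed. Of these, 13 were mitochondrially encoded (7 of complex I, 1 of complex III, 3 of complex IV and 2 of complex V) and 90 were nuclear (46 of complex I, 5 of complex II, 10 of complex III, 12 of complex IV and 17 of complex V). The nuclear members included 11 assembly factors, named Ndufaf, Sdhaf or Uqcc, which help to build a complex and are not part of it. All 103 had at least 1 TPM in at least 3 libraries and entered the tests, and 101 were annotated as protein coding. Ndufb4c on chromosome 15 and Ndufa11b on chromosome 16 were annotated as processed pseudogenes.

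RNA was measured in microglia, the resident macrophages of the brain, sorted by flow cytometry from mouse brain. AF-high (n = 5) and AF-low (n = 3) were microglia of high and low autofluorescence from untreated 18-month-old mice. The young group (n = 3) came from untreated 3-month-old mice, and the PLX5622 group (n = 4) from 18-month-old mice that received PLX5622, which blocks the CSF1 receptor and so depletes microglia. The sources used here do not give the strain, the surface markers of the sort, how autofluorescence was gated for young and PLX5622 cells, or how much compound was given and for how long. They call the libraries biological replicates without saying whether each came from 1 animal or a pool, so p-values reflect only how far these libraries differ. The title of the series names a reversible age-related microglial phenotype, which the comparisons of age, autofluorescence and PLX5622 address.

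In mitochondria, complexes I and II pass electrons from fuel molecules to ubiquinone, complex III passes them to cytochrome c, and complex IV passes them to oxygen. Complexes I, III and IV pump protons across the inner membrane as they do so, and complex V, the ATP synthase, makes ATP from the returning flow. The core subunits of complexes I, III, IV and V are encoded partly on the circular mitochondrial genome, which is copied into long transcripts from both strands that are then cut into single RNAs. All other subunits, and the whole of complex II, come from nuclear genes. Microglia use both glycolysis and oxidative phosphorylation.

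Levels are in TPM, transcript abundance scaled to transcript length and to a like total in each library. Changes are differences of mean log2(TPM + 1) ± SE between groups, and a gene was called at an adjusted p under 0.05 from limma, Benjamini-Hochberg adjusted over 13175 genes. These changes understate the change of genes at low levels. The 6 comparisons share groups with each other, so their values are given side by side and are not independent.

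Several features of the libraries bear on these genes. All 10 microglial markers examined were listed, with a summed level between 6570 and 11934 TPM. The 8 border-associated macrophage markers summed to between 69.4 and 99.1 TPM in PLX5622, 110 and 135 TPM in young, 150 and 277 TPM in AF-high, and 259 and 412 TPM in AF-low. The 4 listed choroid plexus and ependyma markers summed to 8745 and 5764 TPM in young 1 and 2, and to between 31.6 and 368 TPM in the other libraries. Together, 4 satellite-like gene models held 6.07% to 10.9% of all TPM in PLX5622 and 8.58% in young 1, against 0.0280% to 1.59% elsewhere. AF-low 1 had the lowest sum of microglial markers (6570 TPM) and the highest of the 4 listed endothelial markers (134 TPM, against 31.2 to 73.6 TPM elsewhere). The number of reads behind a value is unknown, since TPM does not keep it. In bulk RNA, fewer cells of a type and less RNA per cell cannot be told apart.

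Several members share sequence with another listed gene, so that reads can be assigned to either. The stretches below are those shared between listed genes that bear on the mitochondrial values. In all, 7 mitochondrially encoded members have a near-identical copy elsewhere. The copies of mt-Atp6, mt-Co2, mt-Nd3, mt-Nd4 and mt-Nd4l, all on chromosome 1, are not listed. Any reads assigned to them cannot be added back, and their part in the values was not tested. Coordinates and sequences are of GRCm38 with the GENCODE M21 annotation. The mitochondrial genes mt-Atp8 (chrM:7766-7969) and mt-Atp6 (chrM:7927-8607), which encode the 2 mitochondrial subunits of the ATP synthase, overlap over 43 bases at chrM:7927-7969 on the same strand, and this stretch is part of both transcripts.
mt-Atp8 and mt-Atp6 overlap: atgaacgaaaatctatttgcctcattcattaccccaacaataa
mt-Co3 (chrM:8607-9390), the third catalytic-core subunit of complex IV, is identical over 783 of its 784 bases to Gm28437, an annotated pseudogene at chr1:24613189-24613971. The first 41 bases of both are the same.
mt-Co3: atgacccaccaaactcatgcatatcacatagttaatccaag
Gm28437: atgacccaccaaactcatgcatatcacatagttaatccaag
mt-Co1 (chrM:5328-6872), the subunit that binds oxygen in complex IV, shares its last 483 bases with Gm29216 (chr1:24615706-24616197) with 1 difference, A1066T, counted from the first base of mt-Co1; the capital marks that base.
mt-Co1: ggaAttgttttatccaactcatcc
Gm29216: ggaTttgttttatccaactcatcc

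Promoters are shown for 3 nuclear complex IV genes whose levels lay low in PLX5622 (described further on). Cox6b1 and Cox7c were below every other library there, and Cox6a1 was not. The RefSeq table of GRCm38.p6 held windows of 300 bases, 250 before and 50 after the start, for 71 of the 90 nuclear members, in 76 windows. Exact matches on either strand were counted for 4 motifs. CGCATGCGC, bound by NRF1, a known regulator of respiratory genes, was in 13.2% of the members' windows and 1.75% of all 32851 windows. CCGGAAG, bound by ETS factors such as GABPA, was in 22.4% against 8.86%, and AAGATGGC, bound by YY1, in 14.5% against 2.75%. TATAAA, the TATA box, was in 9.21% against 13.6%. The 250 bases before each start are printed below, with matches in capitals and all 3 genes on the minus strand. Cox6a1 held an NRF1 match, which reads on both strands with the 2 readings overlapping, and an ETS match. Cox6b1 held 1 ETS match, and Cox7c held none of the 4 motifs in its window.
Cox6a1, chr5:115348959-115349208: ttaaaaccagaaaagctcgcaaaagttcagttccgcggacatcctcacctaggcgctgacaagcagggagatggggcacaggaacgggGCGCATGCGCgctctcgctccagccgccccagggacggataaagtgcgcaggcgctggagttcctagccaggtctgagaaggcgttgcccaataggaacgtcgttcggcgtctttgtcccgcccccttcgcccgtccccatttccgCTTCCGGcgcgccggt
Cox6b1, chr7:30626115-30626364: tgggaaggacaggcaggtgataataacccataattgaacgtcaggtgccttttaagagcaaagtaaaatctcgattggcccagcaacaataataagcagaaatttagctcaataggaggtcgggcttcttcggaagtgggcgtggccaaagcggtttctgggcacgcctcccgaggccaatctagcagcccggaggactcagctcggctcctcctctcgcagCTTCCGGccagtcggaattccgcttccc
Cox7c, chr13:86046796-86047045: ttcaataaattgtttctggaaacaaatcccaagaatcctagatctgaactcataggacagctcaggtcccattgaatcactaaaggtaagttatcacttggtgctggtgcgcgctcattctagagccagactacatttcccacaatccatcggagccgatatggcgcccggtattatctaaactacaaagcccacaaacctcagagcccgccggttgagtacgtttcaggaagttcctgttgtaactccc

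The mitochondrially encoded members took a far larger share of the RNA than the nuclear members, and 2 AF-high libraries stood apart in it. Their summed level was 23959, 51515, 73737, 22802 and 25923 TPM in AF-high 1 to 5. In AF-low 1 to 3 it was 25211, 23192 and 21628 TPM, in young 1 to 3 it was 21565, 20076 and 20204 TPM, and in PLX5622 1 to 4 it was 15079, 22655, 18501 and 20543 TPM. AF-high 2 and 3 were thus far above every other library, while the other 3 AF-high libraries overlapped AF-low and lay just above the young libraries. Nuclear members summed to 7794, 5686, 5507, 6837 and 6700 TPM in AF-high, 5654, 6592 and 6497 TPM in AF-low, 7172, 7150 and 6021 TPM in young, and 5297, 5517, 5016 and 5870 TPM in PLX5622. The ratio of the mitochondrially encoded to the nuclear sum was 9.06 and 13.4 in AF-high 2 and 3 and between 2.81 and 4.46 in the other 13 libraries. All 4 PLX5622 libraries had a lower nuclear sum than the 3 young libraries, and overlapped AF-high and AF-low. They overlapped young as well after quantile normalization, with median-of-ratios scaling or without the satellite-like gene models (PLX5622 up to 6499 TPM, young from 6364 TPM). AF-high 2 and 3 also held the lowest level of many nuclear members, 22 and 21 of the 90, and AF-low 1 that of 16. The highest level lay in AF-high 2 for 10 nuclear members and in AF-high 3 for 3.

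**Figure D1:**
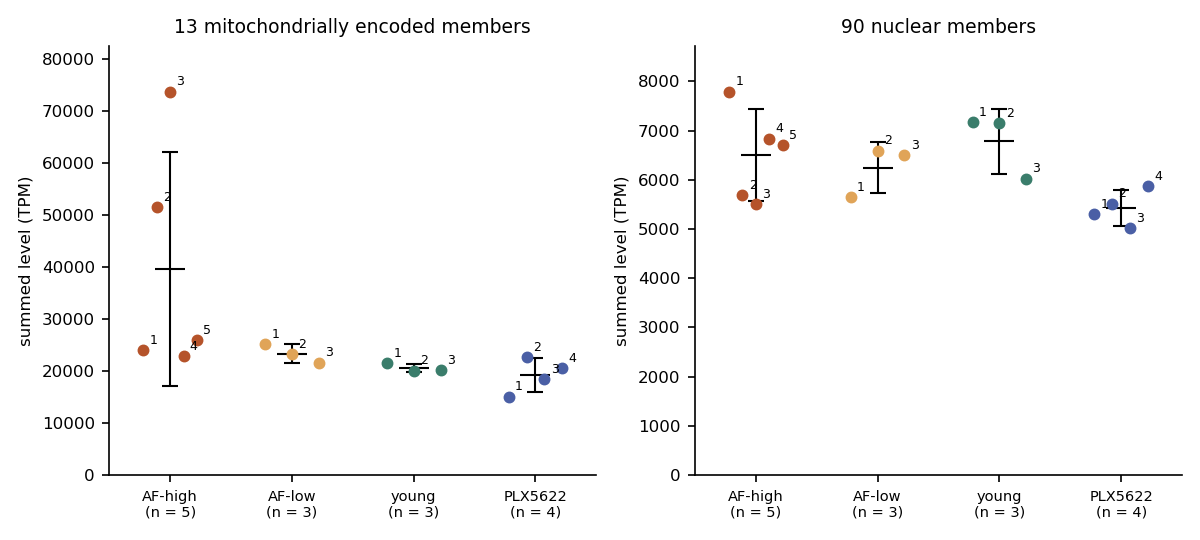
Summed level in TPM of the 13 mitochondrially encoded (left) and 90 nuclear members (right) in each library; points are libraries with their replicate number, bars are the group mean ± SD. AF-high 2 and 3 reach 51515 and 73737 TPM on the left while no other library passes 25923 TPM, and on the right the PLX5622 libraries lie between 5016 and 5870 TPM.

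The pattern of AF-high 2 and 3 ran through nearly every mitochondrial gene. AF-high 3 had the highest level of 12 of the 13, and AF-high 2 the second highest of 12; the exception was mt-Co3, highest in AF-high 1. The 2 libraries also differed in makeup, since the complex I genes held 50.5% and 51.5% of the mitochondrially encoded TPM in them and 37.8% to 46.3% in the other libraries. The share of the complex IV genes was 33.2% and 30.4%, against 36.3% to 46.3%. Whether RNA quality or the amplification moved with these shares was not tested.

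mt-Nd1, a membrane subunit of complex I, was measured at 2660, 6679, 7912, 2480 and 2633 TPM in AF-high, 2837, 2344 and 2407 TPM in AF-low, 2194, 1941 and 1946 TPM in young, and 1218, 2061, 1805 and 2089 TPM in PLX5622. All AF-high libraries lay above all young and all PLX5622 libraries, and AF-high overlapped AF-low. The difference was 0.95 ± 0.35 for AF-high against young (adjusted p = 0.326) and -1.16 ± 0.32 for PLX5622 against AF-high (adjusted p = 0.0940), neither past the threshold. Without AF-high 2 and 3, these differences were 0.36 and -0.56 (adjusted p = 0.448 and 0.121).

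mt-Nd4l, a small membrane subunit of complex I, had the largest SD of the 13 (0.99 on the log2 scale). It was at 1543, 5330, 9105, 1281 and 1375 TPM in AF-high, 2462, 1533 and 1397 TPM in AF-low, 1083, 872 and 1095 TPM in young, and 676, 1215, 982 and 1134 TPM in PLX5622. Its groups were ordered like those of mt-Nd1, with every AF-high library above every young and PLX5622 library. PLX5622 differed from AF-high by -1.44 ± 0.48 (adjusted p = 0.170), and by -0.51 once AF-high 2 and 3 were left out (adjusted p = 0.244). mt-Nd6, the single member encoded on the other strand, had the smallest difference of the 13 for PLX5622 against AF-high, at -0.24 ± 0.33 (adjusted p = 0.785), and was at 0.45 ± 0.36 for AF-high against AF-low (adjusted p = 0.761). Without AF-high 2 and 3 both changed sign, to 0.34 and -0.13. Its 14-base overlap with mt-Nd5 lies on opposite strands, and the sources used here do not say whether the read assignment used strand.

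The other complex I subunits of the mitochondrial genome, mt-Nd2, mt-Nd3, mt-Nd4 and mt-Nd5, had differences of 0.48 to 0.69 for AF-high against AF-low, all positive and none called; without AF-high 2 and 3, those of mt-Nd2 and mt-Nd5 were negative (-0.30 and -0.05). mt-Cytb, the cytochrome b of complex III, was at 2195, 5182, 8284, 2222 and 2644 TPM in AF-high, 2538, 2205 and 2305 TPM in AF-low, 2203, 2010 and 2166 TPM in young, and 1469, 2227, 1853 and 1873 TPM in PLX5622. AF-high 1 and 4 were within the range of the other groups. mt-Atp6, the proton-channel subunit of the ATP synthase, was at 1473, 2236, 3597, 803 and 1036 TPM in AF-high, 1285, 936 and 898 TPM in AF-low, 1179, 909 and 924 TPM in young, and 514, 741, 704 and 754 TPM in PLX5622. Its copy Gm10925, identical over 678 of its 681 bases, is not listed. mt-Atp6 was the single mitochondrially encoded member for which all 4 PLX5622 libraries lay below all 11 others. Against AF-high the difference was -1.24 ± 0.33 (adjusted p = 0.0860) and, without AF-high 2 and 3, -0.67 (adjusted p = 0.128). mt-Atp8 was between 282 and 1444 TPM in AF-high and between 309 and 386 TPM in PLX5622, at -0.69 ± 0.36 (adjusted p = 0.378), or 0.01 without AF-high 2 and 3.

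In complex IV, the division of TPM between mt-Co1 and mt-Co3 and their chromosome 1 copies differed between libraries. mt-Co1 was at 6882, 13976, 17677, 8267 and 9803 TPM in AF-high, 6990, 7222 and 7017 TPM in AF-low, 6799, 7286 and 6993 TPM in young, and 5029, 7316, 6301 and 6801 TPM in PLX5622. Gm29216 was at 3249, 55.3, 90.9, 1174 and 301 TPM in AF-high, 792, 2188 and 944 TPM in AF-low, 2098, 2423 and 2405 TPM in young, and 1307, 2444, 1923 and 2110 TPM in PLX5622. The copy was therefore lowest in the 2 libraries where mt-Co1 was highest, and mt-Co1 held 99.6% and 99.5% of the pair's sum in AF-high 2 and 3 but 67.9% in AF-high 1. With the copy added, the difference of mt-Co1 for AF-high against young went from 0.60 ± 0.25 to 0.35 (adjusted p = 0.393 and 0.568). Gm29216 is shorter than mt-Co1 and aligns over 483 of its 1545 bases. TPM is scaled to length, so the same reads give more TPM on the copy, and the sum does not restore reads.

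mt-Co3 was at 1501, 646, 1025, 173 and 396 TPM in AF-high, 388, 650 and 540 TPM in AF-low, 217, 239 and 394 TPM in young, and 478, 345, 298 and 512 TPM in PLX5622. Gm28437 was at 127, 1491, 1935, 852 and 614 TPM in AF-high and between 367 and 1036 TPM in the other groups. The sum of both was 1629, 2137 and 2960 TPM in AF-high 1 to 3 and between 845 and 1254 TPM in the other 12 libraries. Added together, the pair thus followed the other mitochondrial genes, with AF-high 3 highest and AF-high 2 second. For PLX5622 against young, mt-Co3 alone differed by 0.54 ± 0.53 and with its copy by -0.19 (adjusted p = 0.979 for each), so its sign depended on the copy. mt-Co2, with no listed copy, was between 1771 and 3737 TPM in AF-high and between 1520 and 1770 TPM in young, groups that did not overlap by a narrow margin (0.49 ± 0.22, adjusted p = 0.425).

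**Figure D2:**
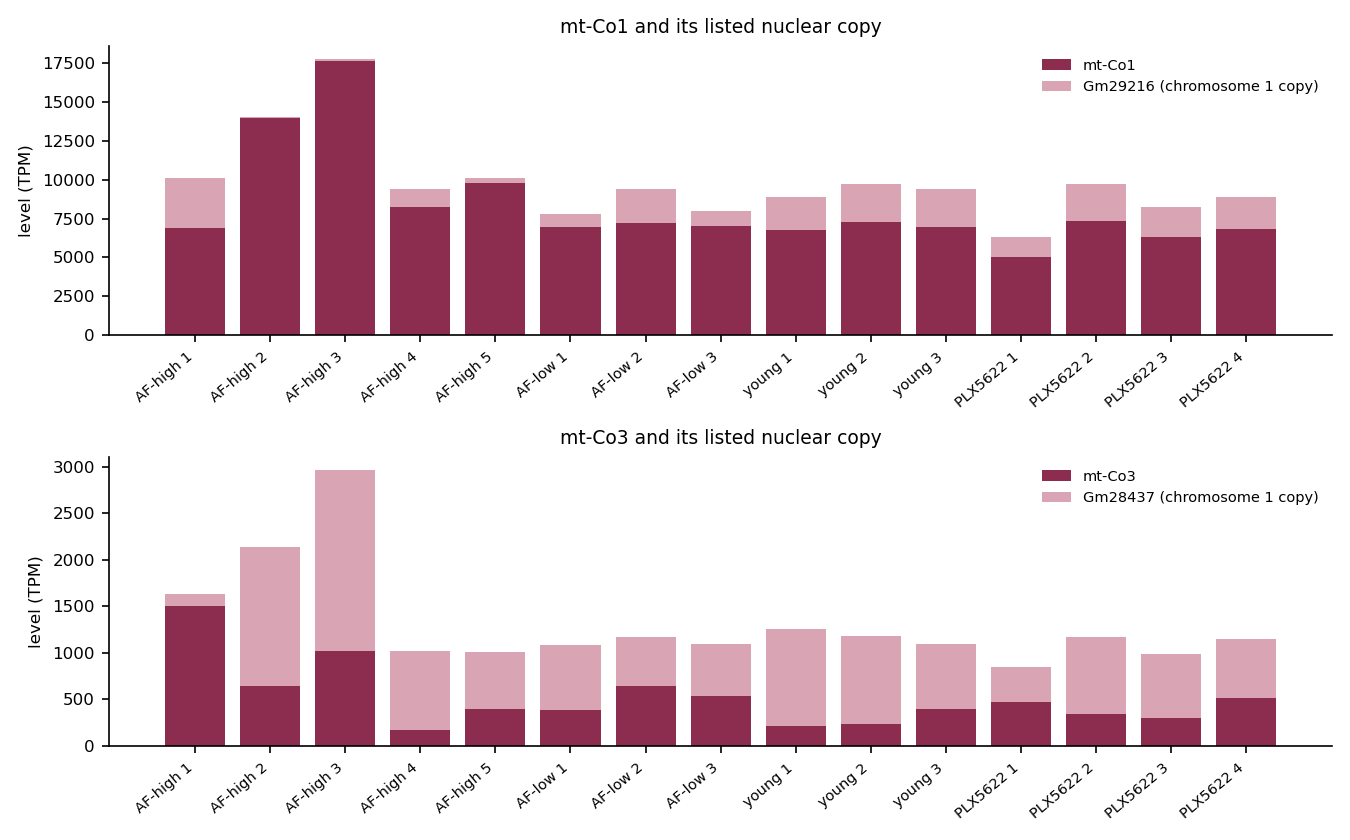
Level in TPM of mt-Co1 with its copy Gm29216 (top) and of mt-Co3 with its copy Gm28437 (bottom), stacked, in each of the 15 libraries. The copy holds a large part of the mt-Co3 bar in most libraries and nearly none in AF-high 1 (127 TPM), while Gm29216 is nearly absent from AF-high 2 and 3 (55.3 and 90.9 TPM).

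No mitochondrially encoded member was called in any comparison with all 15 libraries. Without AF-high 4, mt-Atp6 was called lower in PLX5622 than in AF-high, in a fit that called 205 of all genes, against 83 with all libraries. For AF-high against AF-low, all 13 differences were positive, with a median of 0.59 beside -0.04 over all genes. For AF-high against young, all 13 were positive, with a median of 0.74 beside -0.08; 5 of the 13 had every AF-high library above every young one, in all 7 members of the 103 against 2.63% of all genes. AF-low likewise lay above young without overlap for 6 of the 13, in all 12 members against 8.25% of all genes. For PLX5622 against AF-high, all 13 were negative, with a median of -0.84 beside -0.02. These medians rested on AF-high 2 and 3: without both, they were -0.000122, 0.22 and -0.24. The 3 comparisons without AF-high gave medians of 0.21 for AF-low against young (11 of 13 positive), -0.35 for PLX5622 against AF-low (2 of 13 positive) and -0.05 for PLX5622 against young (3 of 13 positive). The last changed sign with median-of-ratios scaling (0.07) and with the satellite-like gene models left out of the total (0.02), and without young 1 and 2 (0.01), and ran from -0.15 to 0.04 when 1 library was left out.

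No nuclear member was called between the untreated groups. For AF-high against AF-low, 0 of 103 members were called, as were 0% of all genes; at an unadjusted p under 0.05, 7 members were higher and 2 lower, against 3.56% and 4.65% of all genes. The median over the 90 nuclear members was 0.03, with 47 positive, and was 0.24 without AF-high 2 and 3. For AF-high against young, again 0 members and 0% of genes were called; 10 members were higher and 6 lower at an unadjusted p under 0.05 (3.57% and 7.41% of all genes), 8 of the 10 being mitochondrially encoded. The nuclear median was -0.13, with 32 of 90 positive, and became 0.03 without AF-high 2 and 3 and 0.04 without young 1 and 2. For AF-low against young, 0 members and 0.0455% of genes were called, with 2 members higher and 9 lower at an unadjusted p under 0.05 (4.93% and 6.85% of all genes). The nuclear median was -0.18, with 27 of 90 positive, beside -0.04 over all genes, and was -0.04 without young 1 and 2.

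In the PLX5622 group, more nuclear members had negative than positive differences from each other group, while 1 member passed the test and was higher. The negative share was 71.1% against AF-high, 61.1% against AF-low and 86.7% against young. Over all genes it was 52.5%, 55.6% and 69.3%. Against AF-high, 1 of 103 members was called, 0.630% of all genes being called. At an unadjusted p under 0.05, 2 members were higher and 21 lower (5.93% and 9.40% of all genes), of which 9 of the lower were mitochondrially encoded and 12 nuclear. All 4 PLX5622 libraries lay below all 5 AF-high libraries for 9 members (4.18% of all genes). The nuclear median was -0.17, with 26 of 90 positive, beside -0.02 over all genes. It was -0.33 without AF-high 2 and 3 and -0.08 after quantile normalization.

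Against AF-low, 0 members were called by limma (0.144% of all genes), with 2 higher and 9 lower at an unadjusted p under 0.05 (4.11% and 10.2% of all genes). The groups did not overlap, with PLX5622 lower, for 16 members (10.9% of all genes). The nuclear median of -0.09, beside -0.05, changed sign with quantile normalization (0.04) and without the satellite-like gene models (0.01). Against young, 0 members were called (0.0911% of all genes), with 2 higher and 9 lower (1.41% and 3.82% of all genes), and PLX5622 lay below young without overlap for 18 members (12.7% of all genes). The nuclear median was -0.26, with 12 of 90 positive, beside -0.11 over all genes, which median-of-ratios scaling moved by 0.11 to -0.01; the nuclear median was then -0.14. With the satellite-like gene models left out of the total, the nuclear median of PLX5622 was -0.06 against AF-high, 0.01 against AF-low and -0.19 against young. Border-associated macrophage markers also differed between PLX5622 and the other groups, as given above, and their part in these differences was not tested.

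**Figure D3:**
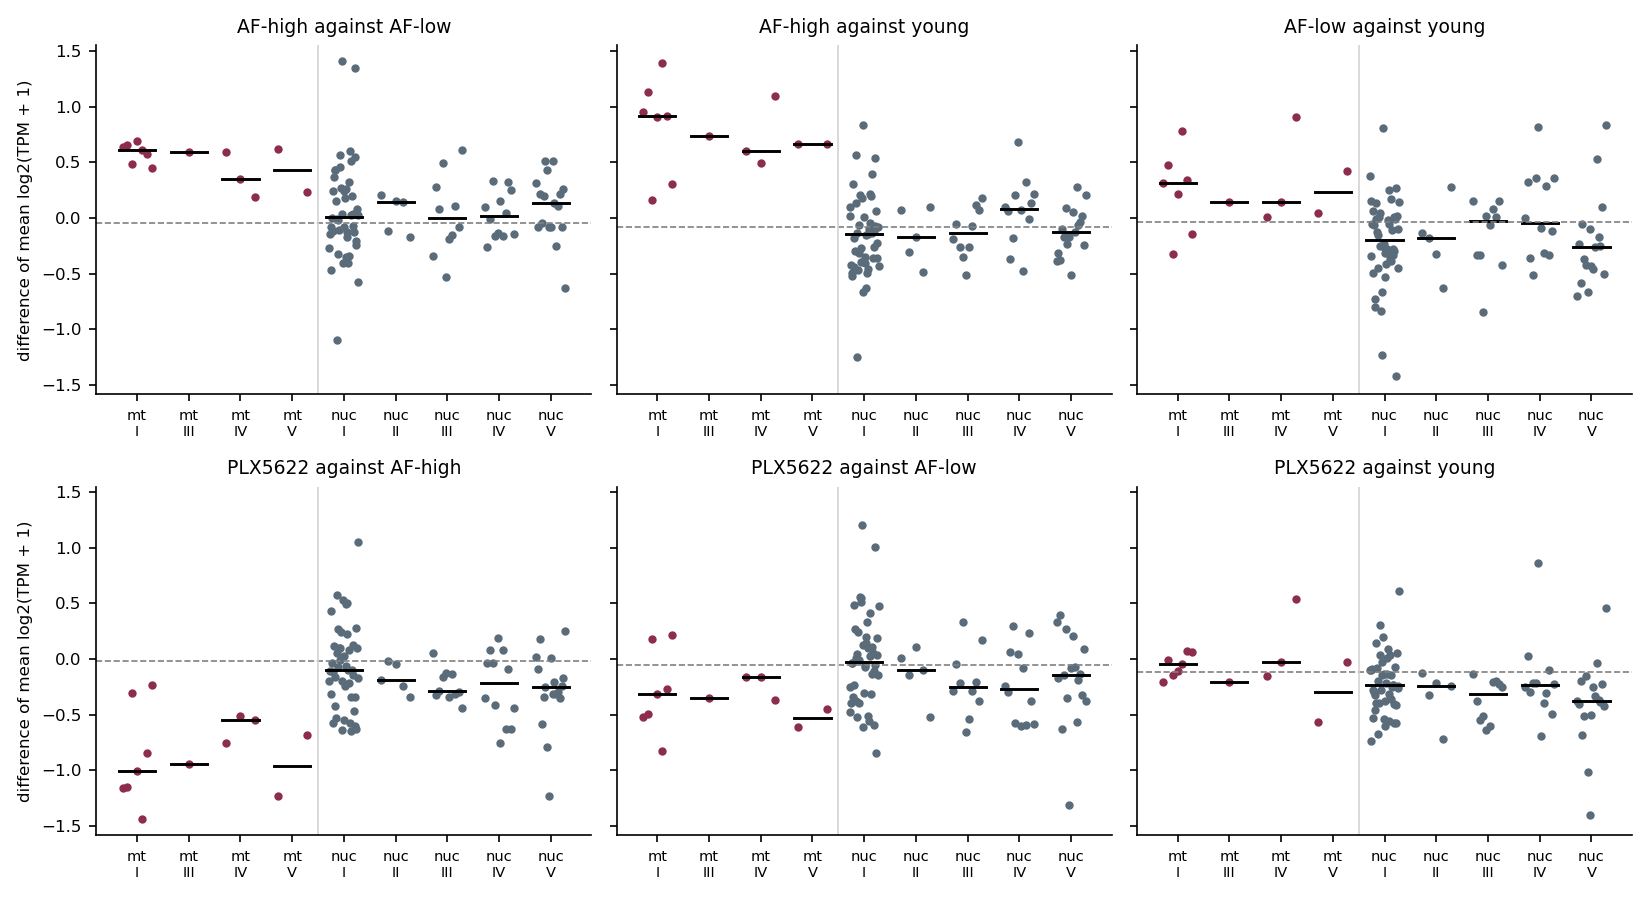
Difference of mean log2(TPM + 1) of each member (points) for the 6 comparisons, by genome of origin (mt, mitochondrial; nuc, nuclear) and complex; black bars are medians of the members and the dashed line is the median of all 13175 genes. The mitochondrial points lie above the dashed line where AF-high is compared with AF-low or young and below it for PLX5622 against AF-high, while nuclear points scatter on both sides.

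Among the nuclear complex I genes, Ndufv3 rose in PLX5622. It encodes an accessory subunit of the matrix arm that takes electrons from NADH, and lies at chr17:31520115-31531331. Its level was 6.02, 5.32, 2.73, 6.17 and 5.87 TPM in AF-high, 8.72, 7.63 and 7.71 TPM in AF-low, 5.94, 7.76 and 8.0 TPM in young, and 12.6, 13.4, 9.31 and 11.2 TPM in PLX5622. Every PLX5622 library was above all 11 others, and every AF-low library was above every AF-high library. The difference was 1.05 ± 0.21 against AF-high (adjusted p = 0.0392), 0.47 ± 0.24 against AF-low (adjusted p = 0.382) and 0.61 ± 0.24 against young (adjusted p = 0.819). The call against AF-high was lost in 10 of the 15 fits that left out 1 library, with an adjusted p of up to 0.144; these were the fits without AF-high 2 or 5, AF-low 3, any young library or any PLX5622 library. It was also lost with AF-high and PLX5622 alone in the fit (adjusted p = 0.102) and without young 1 and 2 (adjusted p = 0.0947), while the difference stayed between 0.87 and 1.14 over the 15 fits.

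Ndufs5, an accessory subunit that stabilises the membrane arm of complex I, was at 36.4, 48.6, 23.8, 27.9 and 22.4 TPM in AF-high, 7.58, 20.99 and 9.06 TPM in AF-low, 27.2, 34.7 and 35.1 TPM in young, and 17.2, 29.8, 23.9 and 26.3 TPM in PLX5622. AF-low lay below all AF-high and all young libraries, and AF-low 2 was far above the other 2 AF-low libraries. The difference was 1.35 ± 0.30 for AF-high against AF-low (adjusted p = 0.444) and -1.42 ± 0.34 for AF-low against young (adjusted p = 0.131). For PLX5622 against AF-low it was 1.01 ± 0.32 (adjusted p = 0.174), with overlap through AF-low 2. Without AF-low 2, both differences of AF-low from young and PLX5622 were called. Calls over all genes then rose as well, from 6 to 182 for AF-low against young and from 19 to 398 for PLX5622 against AF-low. A processed pseudogene, BC002163, matches 319 of the 680 bases of Ndufs5 at 99.37% identity. It is not listed, and its part in the values of Ndufs5 was not tested.

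Ndufaf5, an assembly factor that modifies a core subunit of complex I, was likewise low in AF-low 1, the library with the highest endothelial marker sum; the part of those cells was not tested. It was at 8.03, 11.1, 7.38, 5.96 and 5.36 TPM in AF-high and 0.208, 5.24 and 3.15 TPM in AF-low, groups that did not overlap (1.41 ± 0.43, adjusted p = 0.471). Ndufs4, a subunit needed for a stable matrix arm, was at 59.5, 84.9, 78.9, 72.9 and 44.9 TPM in AF-high, 47.1, 45.6 and 43.0 TPM in AF-low, 44.5, 37.6 and 56.7 TPM in young, and 43.2, 38.5, 48.9 and 43.6 TPM in PLX5622. Of the AF-high libraries, 4 lay above all others, with AF-high 5 inside the range of the other groups. The difference was 0.54 ± 0.19 against young (adjusted p = 0.320) and, for PLX5622 against AF-high, -0.61 ± 0.18 (adjusted p = 0.114).

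Ndufa8, an accessory subunit with paired cysteines, was at 9.52, 2.80, 3.19, 9.42 and 10.6 TPM in AF-high and at 19.0, 13.6 and 16.8 TPM in young. AF-high lay below young in every library and was lowest in AF-high 2 and 3, at -1.25 ± 0.42 (adjusted p = 0.292). With 1 library left out, the difference from young ran from -1.42 to -1.02. That of AF-high from AF-low ran from -1.60 to -0.69. Ndufaf7, a methyltransferase that helps to assemble complex I, also lay lower in every AF-high library (14.3 to 30.6 TPM) than in young (35.7 to 36.7 TPM), at -0.67 ± 0.23 (adjusted p = 0.304). Ndufa4, listed here by its symbol although its protein is now counted with complex IV, was at 36.9 TPM in AF-low 1 and between 67.0 and 138 TPM elsewhere. Over the 46 nuclear complex I members, the median difference ran from -0.24 for PLX5622 against young to 0.01 for AF-high against AF-low.

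Complex II, which also belongs to the citric acid cycle, and complex III held few members with large differences. Sdha, the flavoprotein subunit, was among the most even members, with an SD of log2(TPM + 1) of 0.23 over all 15 libraries. Sdhc, a membrane anchor of complex II, was at 44.5, 51.9 and 45.6 TPM in young, 25.5, 25.5, 25.9 and 37.5 TPM in PLX5622, 41.3, 28.2, 25.5, 40.3 and 35.1 TPM in AF-high, and 26.4, 28.0 and 37.4 TPM in AF-low. Young lay above every library of the 3 other groups. None of its differences from young passed the test, at -0.72 ± 0.20 for PLX5622 (adjusted p = 0.354), -0.63 ± 0.22 for AF-low (adjusted p = 0.266) and -0.48 ± 0.19 for AF-high (adjusted p = 0.371). Uqcrh, the hinge protein of complex III and its most abundant nuclear member, was between 114 and 152 TPM in PLX5622 and between 119 and 217 TPM in AF-high, at -0.30 ± 0.18 (adjusted p = 0.453). All 10 nuclear complex III members had negative differences for PLX5622 against young, with a median of -0.32, as did 69.3% of all genes.

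The nuclear complex IV genes gave the clearest separation of PLX5622 by summed level. Their sum was 1991, 1750, 1558, 1799 and 1858 TPM in AF-high, 1725, 1821 and 1857 TPM in AF-low, 1664, 1696 and 1524 TPM in young, and 1287, 1401, 1267 and 1495 TPM in PLX5622. All 4 PLX5622 libraries lay below all others. This held with the total rescaled without mitochondrial genes and with listed copies added. PLX5622 overlapped young after quantile normalization, median-of-ratios scaling or removal of the satellite-like gene models, and in the last case also AF-high (PLX5622 up to 1656 TPM, AF-high from 1625 TPM). It stayed below AF-low in each. Cox7c, at a mean of 759 TPM over all libraries, was the largest part of this sum. The median difference of PLX5622 from young was -0.24 in complex IV. In complexes I, II, III and V it was -0.24, -0.25, -0.32 and -0.37. From AF-high it was -0.22 in complex IV and -0.10, -0.19, -0.29 and -0.25 in the others. From AF-low it was -0.27 in complex IV and -0.03, -0.10, -0.25 and -0.14 in the others.

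**Figure D4:**
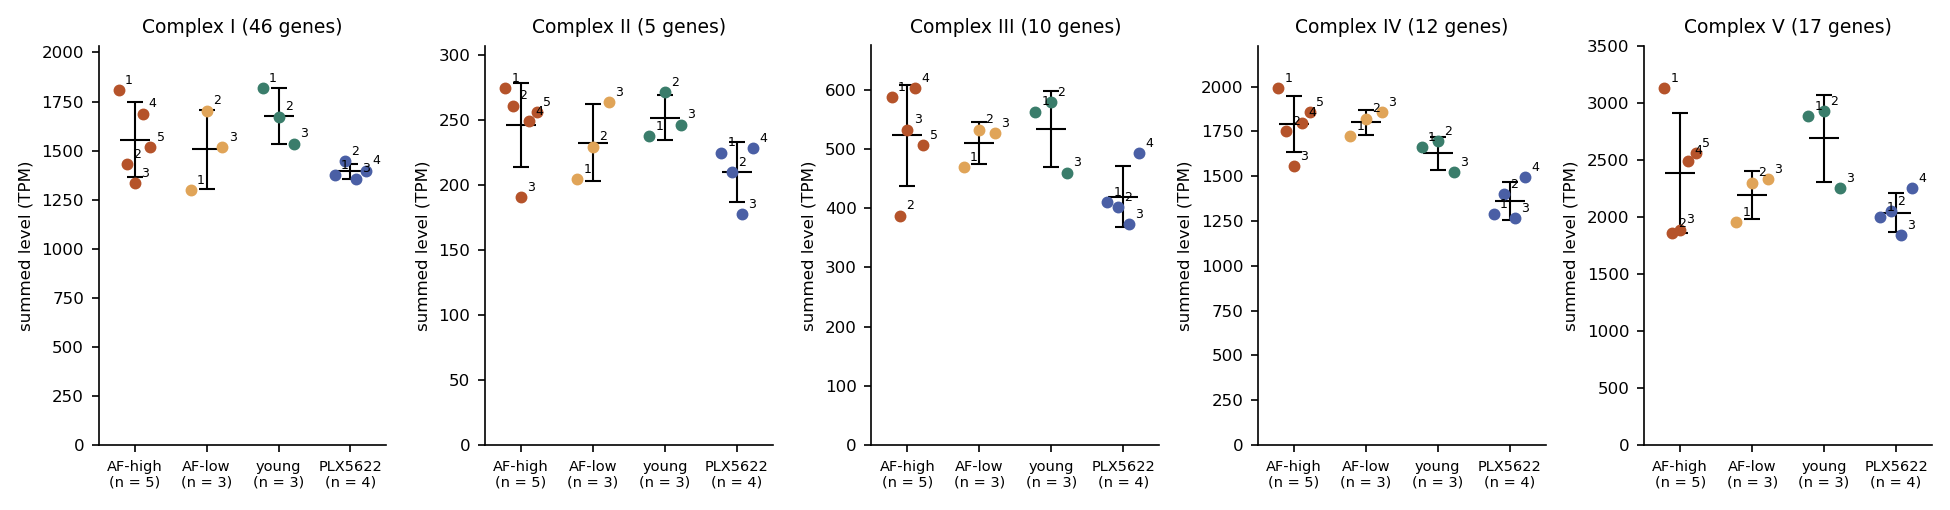
Summed level in TPM of the nuclear members of complexes I to V in each library; points are libraries with their replicate number, bars are the group mean ± SD, and each axis starts at 0. In the complex IV panel the 4 PLX5622 libraries (1267 to 1495 TPM) lie below the other 11 (1524 to 1991 TPM), whereas for complexes I, II, III and V they overlap at least 1 other group.

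Cox6b1, a subunit facing the intermembrane space that helps complex IV to pair up, was at 112, 63.9, 112, 95.0 and 79.4 TPM in AF-high, 79.0, 98.2 and 68.6 TPM in AF-low, 80.2, 95.9 and 83.5 TPM in young, and 44.9, 51.0, 59.3 and 58.3 TPM in PLX5622. All PLX5622 libraries lay below all 11 others, as they did for 3 members in all (Cox6b1, Cox7c and mt-Atp6) and 0.979% of all genes. The difference was -0.76 ± 0.17 against AF-high (adjusted p = 0.0549), -0.60 ± 0.20 against AF-low (adjusted p = 0.178) and -0.69 ± 0.20 against young (adjusted p = 0.361). Over the scalings tried, the difference from AF-high ran from -0.79 to -0.63. It passed the threshold without AF-high 2 and 3 in the fit (-0.82, adjusted p = 0.0419) and with mitochondrial genes left out of the total (adjusted p = 0.0452). With 1 library left out, it passed in 2 of 15 fits, with an adjusted p from 0.0374 to 0.198. Against AF-high, 0 members were called with both groups alone in the fit or with the replicate number as a block.

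Cox7a2, the widely expressed form of a small membrane subunit, was at 102, 102, 92.8, 91.4 and 94.8 TPM in AF-high, 74.7, 108 and 102 TPM in AF-low, 80.8, 81.8 and 68.5 TPM in young, and 59.0, 63.8, 50.2 and 77.4 TPM in PLX5622. AF-high lay above young and PLX5622 without overlap. The difference for PLX5622 was -0.63 ± 0.14 against AF-high (adjusted p = 0.0541, and 0.0401 with mitochondrial genes left out of the total) and -0.59 ± 0.16 against AF-low (adjusted p = 0.136). With 1 library left out, the difference from AF-high passed the threshold in 3 of 15 fits (adjusted p from 0.0344 to 0.224).

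Cox7c, another small membrane subunit and the most abundant nuclear member of complex IV, was at 800, 940, 738, 717 and 928 TPM in AF-high, 868, 888 and 964 TPM in AF-low, 672, 741 and 702 TPM in young, and 603, 612, 535 and 671 TPM in PLX5622. AF-low was highest and PLX5622 lowest, the margin to young being 671 against 672 TPM. For PLX5622 the difference was -0.44 ± 0.11 against AF-high (adjusted p = 0.0779) and -0.59 ± 0.13 against AF-low (adjusted p = 0.0858), and without AF-high 2 and 3 in the fit the latter had an adjusted p of 0.0368. With 1 library left out, the difference from AF-low passed the threshold in 1 of 15 fits (adjusted p from 0.0455 to 0.299). AF-low against young was 0.36 ± 0.14 (adjusted p = 0.308). With its copies Gm12338 and Gm10012 added, the sum of the PLX5622 libraries, 859 to 1141 TPM, overlapped that of young, 1015 to 1229 TPM, and stayed below that of AF-low, 1521 to 1780 TPM.

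**Figure D5:**
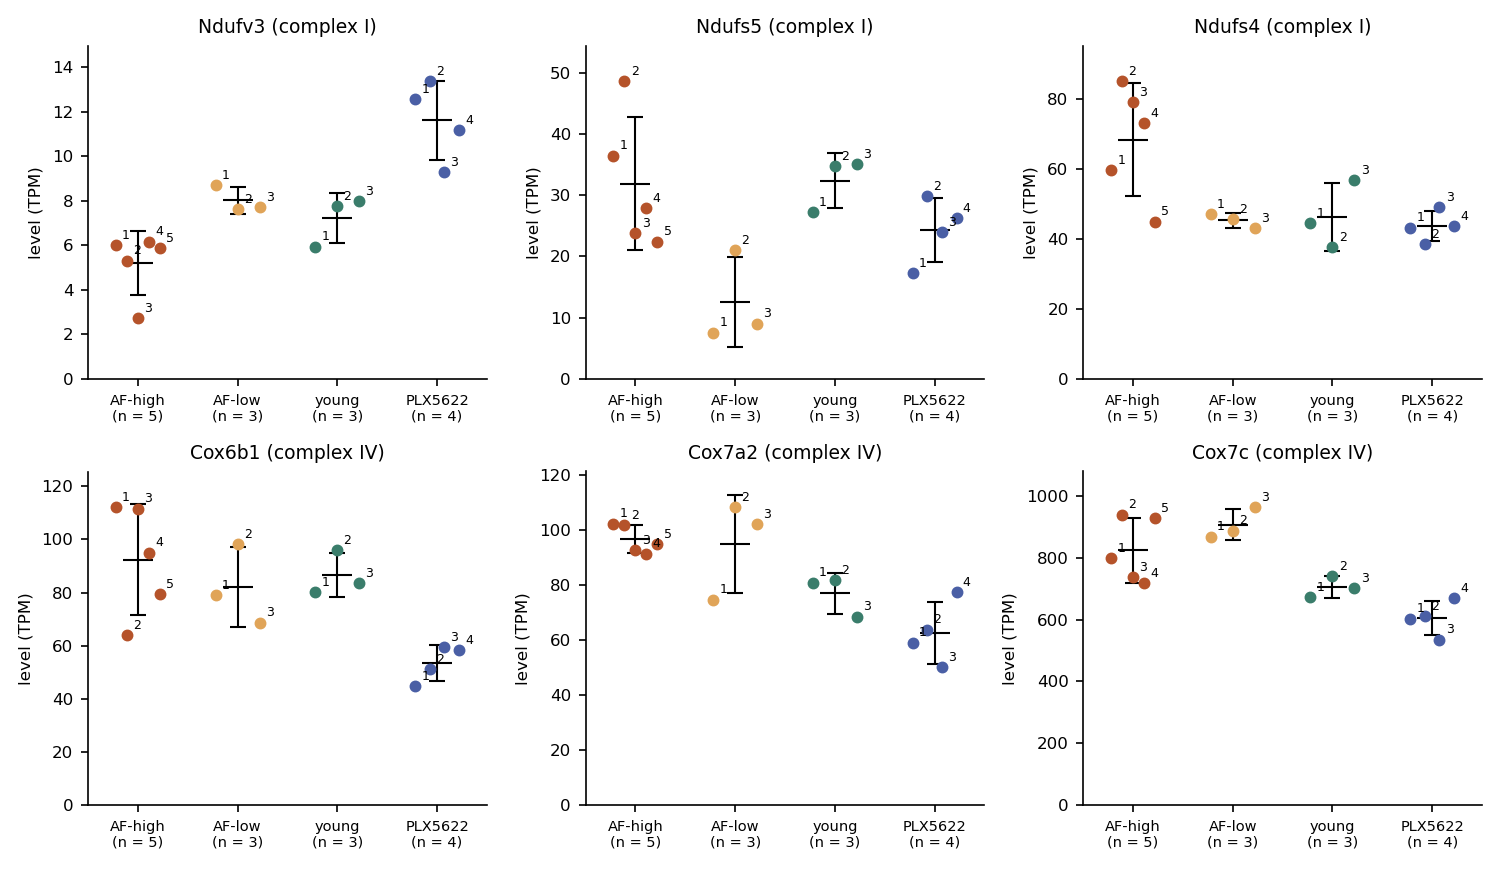
Level in TPM of Ndufv3, Ndufs5, Ndufs4, Cox6b1, Cox7a2 and Cox7c in each library; points are libraries with their replicate number and bars are the group mean ± SD, on axes that start at 0. Ndufv3 is highest in PLX5622 (9.31 to 13.4 TPM), Cox6b1 is lowest there (44.9 to 59.3 TPM), and Ndufs5 is lowest in AF-low (7.58 to 20.99 TPM).

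Cox6a1 and Cox4i1, which help to regulate complex IV, were also lower in value. Cox6a1 was at 90.2, 98.67, 98.96 and 127 TPM in PLX5622 against 166, 148 and 148 TPM in AF-low, groups that did not overlap (-0.58 ± 0.20, adjusted p = 0.203). Its difference of PLX5622 from young was smaller, from -0.31 to -0.13 over the 15 fits without 1 library, and was called in none. Cox4i1, the member with the smallest SD over all libraries (0.19 on the log2 scale), was between 196 and 238 TPM in PLX5622 and between 245 and 312 TPM in AF-high (-0.35 ± 0.11, adjusted p = 0.144). Of the 12 nuclear complex IV members, 6 were lower in PLX5622 than in AF-high at an unadjusted p under 0.05, 4 against AF-low and 2 against young, with none called; the shares of all genes were 9.40%, 10.2% and 3.82%. The paralogs restricted to other tissues were close to the lower limit: Cox4i2, a lung form, was between 0.480 and 5.32 TPM, and Cox6a2, a muscle form, between 0.935 and 6.10 TPM. Cox6a2 was at 2.02, 0.935 and 2.23 TPM in young and at 4.16, 4.96, 2.65 and 3.89 TPM in PLX5622, without overlap (0.86 ± 0.39, adjusted p = 0.934).

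In complex V, the ATP synthase, Atp5b, the catalytic beta subunit, was the most abundant nuclear member of all, between 552 and 1156 TPM in AF-high and between 725 and 883 TPM in PLX5622. Atp5a1, the alpha subunit, was at 133, 166 and 176 TPM in AF-low and 254, 290 and 232 TPM in young, without overlap (-0.71 ± 0.24, adjusted p = 0.266). Atp5j2, a membrane subunit, went the other way, at 64.4, 47.0 and 42.2 TPM in AF-low and 37.3, 37.7 and 29.8 TPM in young (0.52 ± 0.22, adjusted p = 0.362).

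Atp5g2, one of 3 genes for the c subunit of the rotor ring, had the largest SD of all nuclear members (1.13 on the log2 scale). It was at 7.34 TPM in AF-high 2 and at 8.86 and 11.2 TPM in PLX5622 3 and 4, and between 34.5 and 103 TPM in the other 12 libraries. Its sum with the copy Gm10175 was 101, 109 and 133 TPM in those 3 libraries and between 122 and 271 TPM in the others, a narrower spread. The copy aligns over 127 of the 753 bases of Atp5g2, and how far reads moved between them was not tested. Over the 17 members of complex V, 16 had negative differences for PLX5622 against young, with a median of -0.37, again beside 69.3% of all genes.

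Genes that serve the same pathway gave 1 call, in a comparison where 0.630% of all genes were called. Of 115 tested genes of 6 lists (regulators of mitochondrial biogenesis, mitochondrial DNA and RNA maintenance, cytochromes and quinone synthesis, other assembly factors, the ATP synthase inhibitor and carriers, and the citric acid cycle with pyruvate entry), none was called in the 5 other comparisons. In PLX5622 against AF-high, Ucp2, a carrier of the inner membrane, fell. It was at 461, 455, 386 and 531 TPM in PLX5622 and at 674, 858, 660, 713 and 902 TPM in AF-high, without overlap (-0.73 ± 0.14, adjusted p = 0.0384). The call was lost in 9 of 15 fits without 1 library, those without AF-high 2 or 5, any young library or any PLX5622 library (adjusted p up to 0.178). It was also lost without AF-high 2 and 3 (0.0501), without young 1 and 2 (0.0941), with both groups alone in the fit (0.0797), with the satellite-like gene models left out of the total (0.0534) and after quantile normalization (0.0605). For AF-low against young, the citric acid cycle list had the median farthest from 0 of the 6 lists, with 18 of 23 genes negative and a median of -0.37 beside -0.04 over all genes; 4 of the 23 were lower at an unadjusted p under 0.05 and none higher (6.85% and 4.93% of all genes). Over all genes, 54.3% were negative. The citric acid cycle list was also mostly negative for AF-high against young (20 of 23, median -0.24, beside 61.0% of all genes). For PLX5622 against young it was negative in 21 of 23 (median -0.32, beside 69.3% of all genes). The part of young 1 and 2, with their choroid plexus markers, in this list was not tested.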

How the data were processed

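The authors deposited 1 table of TPM values for 15 libraries of sorted mouse microglia. Per the labels' protocols, RNA was extracted with RNeasy mini columns and amplified with the Ovation RNA-seq system before low-input library preparation. Per the submitters' processing notes, FastQC 0.11.8, Salmon 1.0.0 and DESeq2 were used with GRCm38/mm10; how each was set is not stated there. TPM keeps no read depth, so precision is judged by the spread between libraries; totals were 956489 to 963145 TPM and no value was 0. Of the symbols, 19 had turned into dates, none of a member.

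From these values, log2(TPM + 1) of 13175 genes with at least 1 TPM in at least 3 libraries was fitted in limma 3.58.1 (R 4.3.3) with all 15 libraries and 4 groups, with a mean-variance trend and 6 contrasts. The p-values were Benjamini-Hochberg adjusted within each contrast, and the script was checked on simulated data. Copies were found with blastn 2.17.0 at 99% identity or more over at least 100 bases. Figures were drawn with matplotlib 3.10.9.

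The members and gene lists were chosen with earlier results of these data known. Named are the mitochondrially encoded members, the called members or, where a comparison had none, the 2 with the smallest p in each direction, the most abundant nuclear member of each complex, tissue-restricted paralogs with their partners, and the 2 nuclear members with the largest and the smallest SD; called genes of the other lists are named too. A gene that this rule names is not reported here. Cell type markers and copies stand beside the results they touch. Alternatives were another pseudocount, 2 other filters, quantile and median-of-ratios scaling, totals without mitochondrial genes, array weights, fits of 2 groups, a replicate block and libraries left out. Totals without 4 satellite-like gene models, and copies added to members, were chosen after seeing the data. Adding copies sums TPM and not reads, so a copy shorter than its member weighs more.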

Additional observations from a re-analysis of the deposited data

Results flagged for a closer look

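Of 108 groups of 4 or 5 libraries tested for a single library far from the rest, 4 had one; chance gives about 1 in 20. For mt-Nd3, which encodes part of complex I, AF-high 3 had 897.7 TPM and the other AF-high libraries between 367.8 and 515.8 TPM. Ndufv3 was at 2.729 TPM in AF-high 3 and between 5.323 and 6.172 TPM in the other 4. Atp5j2 was at 28.32 TPM in PLX5622 3 and between 35.37 and 35.96 TPM in the other PLX5622 libraries. Sdhc was at 37.48 TPM in PLX5622 4 and between 25.5 and 25.94 TPM in the others.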

How the results depend on the processing

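The members called or with the smallest p in each comparison gave 21 results, picked from these same data. None changed direction over 272 values under the alternatives, and 263 kept their side of the threshold. All but the call of Ndufv3 were uncalled to begin with, so these counts say little about how firm the results are. The fits without a single library are not among them, and in 10 of those 15 the call of Ndufv3 against AF-high was lost. Over all 6 comparisons of 26 genes, 70 of 2028 values changed sign, 42 of them of mitochondrially encoded members and 0 with an adjusted p under 0.05. Against AF-high, PLX5622 had 1 member called; the count was 3 with a mean of at least 5 TPM and 3 with totals rescaled without mitochondrial genes, adding Cox6b1 and Cox7a2 each time, 5 with array weights and 5 without AF-high 2 and 3. It was 0 with both groups alone in the fit, 0 without young 1 and 2, and 0 to 3 when 1 library was left out. Over all genes, the 83 calls of that comparison became 125, 129, 441, 129, 7 and 3 under these settings in the same order, and 48 without the satellite-like gene models. With 1 library left out, they ran from 1 to 205. AF-low against young gave 1 member with array weights (44 of all genes, 6 as deposited) and 0 to 3 with 1 library left out (0 to 182 of all genes). PLX5622 against AF-low gave 1 with array weights (89 of all genes, 19 as deposited) and 1 without AF-high 2 and 3 (142). With 1 library left out it gave 0 to 3 (2 to 398 of all genes). PLX5622 against young gave 7 with array weights (420 of all genes, 12 as deposited) and 1 with both groups alone in the fit (59). With 1 library left out it gave 0 to 1 (1 to 53 of all genes). Without young 1 and 2, the nuclear median was -0.0397 for AF-low against young and -0.12 for PLX5622 against young. The mean mitochondrially encoded sum of young, 20615 TPM, was 21640 with quantile normalization, 19540 with median-of-ratios scaling, 21920 without mitochondrial genes in the total, 22300 without the satellite-like gene models and 23820 with copies added; that of AF-low was 25240 with copies. The mean nuclear sum of PLX5622 was 6115 TPM without the satellite-like gene models. With copies added, it was 7441 in AF-high, 7318 in AF-low, 7549 in young and 6151 in PLX5622. Except where fewer libraries or genes entered the fit, the cause was not tested.

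With the replicate number as a block, 0 members and 0 of all 13175 genes were called for PLX5622 against AF-high, where Ndufv3 was at 1.09 (adjusted p = 0.111) and Ucp2 at -0.66 (adjusted p = 0.143). The mitochondrially encoded median for PLX5622 against young was 0.03 with the block. The numbers were not taken to pair the libraries, since the correlation of deviations ran from -0.08 to 0.14 over 19 same-numbered pairs and was over 0.1 in 1. The libraries that correlated best with their own number were 1 of 6 for AF-high with AF-low, 3 of 6 for AF-high with young, 4 of 8 for AF-high with PLX5622, 1 of 6 for AF-low with young, 4 of 6 for AF-low with PLX5622 and 2 of 6 for young with PLX5622.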

Other observations

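Ndufaf6, a complex I assembly factor with the second largest SD of all members (1.09 on the log2 scale), was at 34.7, 24.1 and 0.940 TPM in AF-low, so that this group held both its highest and its lowest value. Ndufb4, a complex I subunit, is identical over 390 bases to the processed pseudogene Ndufb4c, and held 6.43% to 24.5% of their sum. That sum was between 32.6 and 77.5 TPM over the 15 libraries.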
